A study of Mus musculus with 24 samples.

Results

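A set of 10 genes, chosen by symbol, stands here for the YAP and TEAD pathway: the coactivators Yap1 and Wwtr1 (which encodes TAZ), the DNA-binding factors Tead1, Tead2 and Tead4, the upstream kinase Lats2, the junction protein Amotl2, and the target genes Ctgf (Ccn2), Cyr61 (Ccn1) and Ankrd1. All 10 were found among the 56205 gene rows of the count table by Ensembl identifier, all of them protein-coding in GENCODE M21 (GRCm38, the build of the coordinates below), and 9 of them were abundant enough to be tested alongside 14109 genes in all. RNA carrying poly(A) was prepared from liver of C57BL/6J mice, with 12 animals on a diet deficient in methionine and choline (MCD) and 12 on a control diet, each kept for 20 weeks. No transgene, knockout or drug is named for either group, and the MCD diet models steatohepatitis with fibrosis. Both sexes entered each diet in equal numbers (6 each), yet the sex of a single mouse is not labelled and its age is not given in the sources used here. By the methods of the study the MCD feed was rich in fat and had a matching control feed, while a protocol label calls the control a chow. The text of the study also names a choline-deficient, amino acid-defined feed rich in fat, and whether that is the feed of these mice is not stated.

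YAP and TAZ have no DNA-binding domain of their own and act on genes through the TEAD proteins. When the Hippo kinases are active, LATS phosphorylates YAP and TAZ, which then stay in the cytoplasm or are degraded, so much of the control of this pathway lies in protein phosphorylation and location, which RNA counts do not record. In liver the pathway is known for setting organ size, for the biliary fate of epithelial cells, and for the activation of stellate cells during fibrosis.

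Library totals ran from 16388650 to 24915175 counts. The factors of the trimmed mean of M values (TMM), which set the scale of every library, were separate for the diets, 0.642 to 0.973 for control and 1.07 to 1.26 for MCD livers, and all levels and differences below are on that scale unless stated. Control replicate 12 stood apart, with the lowest factor (0.642, the next being 0.792), and was the lowest control for 27.8% of all tested genes and for 5 of the 9 tested members. Its sum of 8 hepatocyte markers was also the highest of any library, 178047 CPM (counts scaled to a library total of 1000000), against 54862 to 123039 CPM in the other 23, where hepatocyte RNA was abundant too. For the members in which it was the lowest control (Tead4 with 0 counts included), the fold change is also given without it.

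Of the 9 tested members, 3 were higher in MCD livers and 0 were lower. The higher genes were Ankrd1, Ctgf and Tead2, while both coactivators, the other tested TEAD gene, Lats2, Amotl2 and Cyr61 did not pass. A gene passed at a false discovery rate (FDR, Benjamini-Hochberg over all 14109 genes, edgeR quasi-likelihood test) of 0.01 or less with an absolute log2 fold change above 0.5. By this rule 19.2% of all tested genes were higher and 19.1% were lower, beside 33.3% and 0% of the tested members. Every MCD library lay above every control for 2 members, Ankrd1 and Ctgf, and below every control for 0, against 9.5% and 4.88% of all tested genes. The count of 3 higher members was the same without control replicate 12. At an unadjusted edgeR p under 0.05, 2 members were lower (Yap1 and Lats2), and DESeq2 and limma-voom also placed 0 as lower by the full rule. The median log2 fold change was -0.02 over the 9 members and -0.10 over all tested genes. Of the higher members, Ankrd1 passed the low-count filter only through the libraries where it is high. Members were picked with results of these data already known, so the counts describe them and support nothing further.

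**Figure D1:**
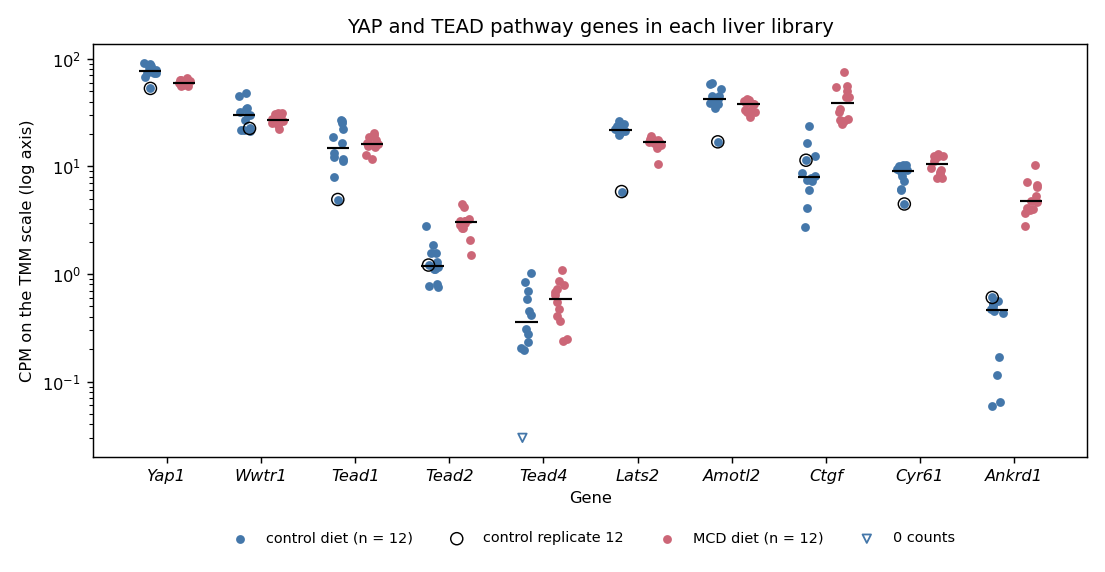
CPM of each of the 10 genes in every liver library, on a log axis, with 12 control (blue) and 12 MCD (red) points for each gene and a black bar at the median. The MCD points of Ctgf and Ankrd1 lie above every control point, and the ringed point, control replicate 12, is the lowest control for Yap1, Tead1, Lats2, Amotl2 and Cyr61; the open triangle marks 0 counts of Tead4.

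Markers of several cell types moved with the diet, and in whole liver more cells of a type and more RNA per cell cannot be told apart. The summed level of 11 mesenchymal markers ran from 231 to 660 CPM in control livers and from 862 to 1506 CPM in MCD livers, with 9 of 11 genes higher and 1 lower. The sum of 8 cholangiocyte markers ran from 50.6 to 169 CPM and from 490 to 956 CPM, with 7 of 8 genes higher. Sums over 7 monocyte and macrophage markers (77.7 to 223 and 1382 to 3284 CPM) and 6 proliferation markers (5.18 to 17.4 and 22.4 to 38.4 CPM) did not overlap between the diets either, and all 7 and all 6 genes were higher. Of 8 lymphocyte markers 4 were higher (3.94 to 12.4 and 11.1 to 24.8 CPM). The 8 endothelial markers were lower in sum (208 to 308 and 124 to 190 CPM), with 6 of 8 genes lower, as were 4 of 5 Kupffer cell markers (137 to 423 and 81.3 to 297 CPM; 2 of 5 with the replicate number as a block) and 3 of 8 hepatocyte markers (72565 to 178047 and 54862 to 81223 CPM). Scaling to total counts left as lower 3 of 8 endothelial, 1 of 5 Kupffer cell and 0 of 8 hepatocyte markers. No marker was at 0 in every library. With at least 10 counts in every sample, fewer markers of some lists were left to test. Those higher were then 5 of 5 cholangiocyte, 3 of 3 monocyte and macrophage, 5 of 5 proliferation and 0 of 1 lymphocyte markers. Over all tested genes 19.2% were higher and 19.1% lower in the main fit. The part of these shifts in the rise of Ctgf, Ankrd1 and Tead2, or in the levels of the other members, was not tested.

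Yap1 (ENSMUSG00000053110, chr9:7931999-8004596), which encodes the coactivator YAP, was the most abundant of the 10 genes in control livers per length of transcript, at 8.33 ± 1.14 CPM per kb of exon (SD, n = 12). Its level ran from 53.0 CPM through a median of 76.5 to 91.8 CPM in control livers, and from 55.3 through 60.1 to 66.5 CPM in MCD livers. All 12 MCD libraries lay below the control median, and the groups overlapped only through control replicate 12. Without that library the lowest control was 67.3 CPM, so that the 12 MCD libraries were then below all 11 controls. The share of all tested genes so placed was not computed, and that library was the lowest control for 27.8% of them. The log2 fold change was -0.36 (SE 0.07, 95% confidence interval -0.50 to -0.21, edgeR FDR 8.8e-05), past the FDR limit and short of the fold limit. It was again -0.36 without control replicate 12 (edgeR FDR 1.59e-06), but -0.003 under scaling to total counts alone (edgeR FDR 0.981).

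Wwtr1 (ENSMUSG00000027803, chr3:57455649-57575910) encodes TAZ, the paralog of YAP. Its level ran from 21.2 through 30.0 to 47.7 CPM in control livers and from 22.1 through 27.2 to 31.6 CPM in MCD livers. The MCD range sat inside the control range, with a log2 fold change of -0.16 (SE 0.12, 95% confidence interval -0.41 to 0.09, edgeR FDR 0.246). Its sign turned under total counts alone (0.19, edgeR FDR 0.255). Per kb of exon, Yap1 exceeded Wwtr1 in 10 of 12 control and 10 of 12 MCD libraries, with a mean ratio of 1.38 ± 0.38 and 1.15 ± 0.14 (SD, n = 12 each).

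The TEAD proteins bring YAP and TAZ to DNA. Tead1 (ENSMUSG00000055320, chr7:112679318-112906807) ran from 4.92 through 14.8 to 27.2 CPM in control livers and from 11.6 through 16.1 to 20.2 CPM in MCD livers. Controls spread more than MCD livers, with a coefficient of variation of 45.5% against 15.5% (39.2% without control replicate 12, the lowest control, when the lowest is 7.98 CPM), and the log2 fold change was -0.02 (SE 0.20, 95% confidence interval -0.43 to 0.39, edgeR FDR 0.935). It was -0.08 without control replicate 12 and ran from -0.02 to 0.29 across the alternatives that kept all libraries, so its sign is not resolved. A larger coefficient of variation in control livers was found for 90.0% of all tested genes and 10 of 10 members, or for 80.7% and 8 of 10 without control replicate 12.

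Tead2 (ENSMUSG00000030796, chr7:45215753-45233644) was the one TEAD gene past the threshold. Controls gave 11 to 49 counts of it (median 19.5), and MCD libraries 30 to 106 (median 77). In CPM it ran from 0.75 through 1.19 to 2.77 in control livers and from 1.49 through 3.02 to 4.51 in MCD livers. The ranges overlapped, although 8 of 12 MCD libraries lay above every control and all 12 above the control median. Tead2 thus rose by 1.16 on the log2 scale (SE 0.20, edgeR FDR 1.2e-05), or 2.23-fold with a 95% confidence interval from 1.69 to 2.95. It was 1.18 without control replicate 12. An exon of Tead2 shares 13 bases with an exon of Cd37, a leukocyte gene on the opposite strand that itself rose (log2 fold change 1.57, SE 0.17, edgeR FDR 7.51e-09). The shared bases are 0.272% of the exon bases of Tead2, and their part in its rise was not tested.

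Tead4 (ENSMUSG00000030353, chr6:128224288-128300823) was too low for the test, with 0 to 22 counts in control (median 6) and 5 to 22 in MCD libraries (median 15). Its level was 0.436 ± 0.299 CPM and 0.589 ± 0.259 CPM (SD, n = 12 each), and the ranges overlapped. A count of 3, taken as the floor of what a library resolves, equals 0.134 to 0.227 CPM in control libraries, so that part of the Tead4 values lie at or near it. Fitted with no filter on low counts, it gave 0.42 on the log2 scale (SE 0.35, edgeR FDR 0.352). Without control replicate 12 it passed the filter and gave 0.30 (SE 0.295, edgeR FDR 0.369).

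The fourth family gene, Tead3, is not among the 10 and was included to give the makeup of the family. It did not pass the fold limit (log2 fold change -0.35, SE 0.10, edgeR FDR 0.00333) and, per kb of exon, had the highest level of the family in both diets. Tead3 made up 61.8% ± 10.7 of the summed TEAD level in control livers and 49.7% ± 3.49 in MCD livers, and Tead2 6.68% ± 1.90 and 15.7% ± 3.01 (SD, n = 12 each). The share of Tead2 ran from 4.30% to 10.6% in control and from 10.4% to 19.2% in MCD livers. Tead1 held 28.6% ± 9.21 and 30.5% ± 4.27, and Tead4 2.89% ± 1.85 and 4.10% ± 1.72. The summed level was 4.12 ± 0.913 CPM per kb in control and 3.95 ± 0.499 in MCD livers. Shares within a library do not depend on how libraries are scaled, and they are given as a description.

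**Figure D2:**
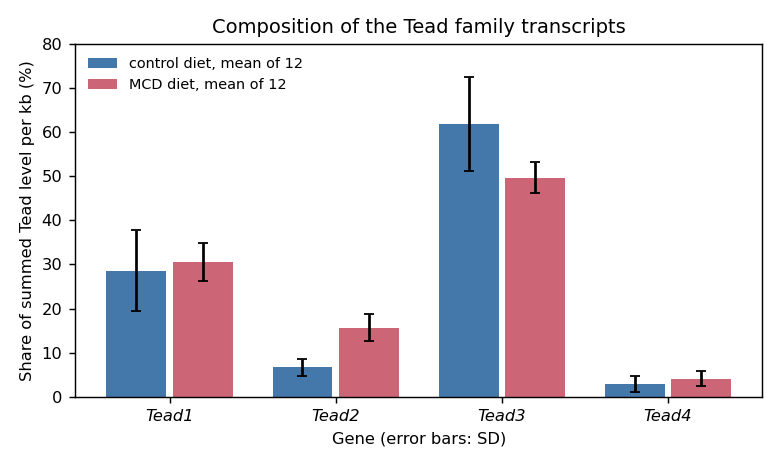
Mean share of each Tead gene in the summed level of Tead1 to Tead4 per kb of exon, in percent, for 12 control (blue) and 12 MCD (red) livers, with error bars of 1 SD. Tead2 made up 6.68% of the family in control and 15.7% in MCD livers, and Tead3 was the largest part in both.

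Lats2 and Amotl2 act upstream and are also switched on by YAP. Lats2 (ENSMUSG00000021959, chr14:57689662-57758388) encodes a kinase that phosphorylates YAP and TAZ. It ran from 5.83 through 21.8 to 26.4 CPM in control livers and from 10.6 through 16.7 to 19.0 CPM in MCD livers. The 5.83 was control replicate 12, whose 77 counts compare with 313 to 491 in the other controls, and without it all 12 MCD libraries lay below all 11 controls (lowest 19.7 CPM). How many of all tested genes were then so placed was not computed, and control replicate 12 was the lowest control for 27.8% of them. The log2 fold change was -0.36 (SE 0.14, 95% confidence interval -0.65 to -0.07, edgeR FDR 0.028) with that library and -0.42 (SE 0.07, edgeR FDR 2.09e-05) without it, in both cases short of the fold limit. With total counts alone it was -0.03 (edgeR FDR 0.89). A predicted gene on the same strand, Gm49361, covers 42.4% of the exon bases of Lats2 and was listed with 0 to 2 counts. The way shared reads were counted is not known, so the level of Lats2 is uncertain to that extent.

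Amotl2 (ENSMUSG00000032531, chr9:102716672-102733418) encodes an angiomotin family protein that holds YAP at cell junctions. Its level ran from 16.9 through 42.4 to 59.5 CPM in control livers and from 28.7 through 37.9 to 42.0 CPM in MCD livers. All 12 MCD libraries were below the control median, but only 5 lay below every control once control replicate 12 was set aside, and 0 with it. The log2 fold change was -0.23 (SE 0.13, 95% confidence interval -0.50 to 0.03, edgeR FDR 0.115). It was -0.28 without control replicate 12 (edgeR FDR 0.00839), still short of the fold limit, and 0.10 with total counts alone (edgeR FDR 0.588).

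Ctgf, Cyr61 and Ankrd1 are the target genes most used to read YAP and TEAD activity. Each had a positive log2 fold change, but of unlike size. To show what their promoters share, the 250 bases before the annotated start site are printed for Ankrd1 and Cyr61, with Amotl2 as a member that did not pass and Tead2 as a higher member without the motif. The sequences come from the RefSeq annotation of GRCm38.p6, the build named mm10 in the submitters' processing notes. Start sites are those of RefSeq, and the GENCODE models of Ankrd1, Amotl2, Tead2 and Lats2 begin upstream of them, so the windows of these genes are not those of the GENCODE starts. The sequences run 5′ to 3′ on the strand of the gene, and capitals mark GGAATG or its reverse complement CATTCC, the core of the known TEAD motif.
Ankrd1 (chr19:36119845-36120094, minus strand): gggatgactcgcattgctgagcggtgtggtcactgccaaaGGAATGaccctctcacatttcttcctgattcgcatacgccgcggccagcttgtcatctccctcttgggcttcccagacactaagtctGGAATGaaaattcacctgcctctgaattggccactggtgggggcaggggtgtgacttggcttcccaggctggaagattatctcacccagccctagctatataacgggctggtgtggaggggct
Cyr61 (chr3:145649986-145650235, minus strand): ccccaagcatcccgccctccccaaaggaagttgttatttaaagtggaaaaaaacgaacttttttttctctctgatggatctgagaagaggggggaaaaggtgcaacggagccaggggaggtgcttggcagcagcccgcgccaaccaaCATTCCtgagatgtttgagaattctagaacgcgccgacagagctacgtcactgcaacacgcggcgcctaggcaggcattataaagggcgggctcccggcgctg
Amotl2 (chr9:102717554-102717803, plus strand): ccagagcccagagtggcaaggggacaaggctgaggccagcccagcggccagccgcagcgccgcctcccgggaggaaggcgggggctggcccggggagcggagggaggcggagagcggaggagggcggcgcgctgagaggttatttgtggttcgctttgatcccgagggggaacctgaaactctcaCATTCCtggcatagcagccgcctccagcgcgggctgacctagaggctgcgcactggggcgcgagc
Tead2 (chr7:45215542-45215791, plus strand): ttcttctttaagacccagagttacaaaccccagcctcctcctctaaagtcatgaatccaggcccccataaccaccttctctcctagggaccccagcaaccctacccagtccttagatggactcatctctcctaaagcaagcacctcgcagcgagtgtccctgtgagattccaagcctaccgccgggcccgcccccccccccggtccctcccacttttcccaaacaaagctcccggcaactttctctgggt
The Ankrd1 window holds 2 matches, whose leftmost bases are at -210 and -123 from the start site. Cyr61 has 1 at -103 and Amotl2 1 at -65, while the Tead2 window has 0. A window was found for 7 of the 10 members. Those of Yap1 (at -141) and Wwtr1 (at -136 from the upstream of its 2 annotated starts) also have 1 match, and both windows of Lats2 have 0. Among all 32851 annotated windows of this length 12.6% hold at least 1 match on either strand and 1.02% hold 2 or more. Ctgf, Tead1 and Tead4 had no entry. The letters TGANTCA, the core that AP-1 binds, were found in 0 of the 9 member windows and in 6.75% of all windows. These matches describe letters in a window and do not show binding.

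Ankrd1 (ENSMUSG00000024803, chr19:36111961-36120099), which encodes an ankyrin repeat protein of muscle and injured tissue, gave the largest difference of the 10 genes. Control libraries held 1 to 11 counts (median 7.5) and MCD libraries 56 to 239 (median 110.5). In CPM it ran from 0.059 through 0.463 to 0.605 in control livers and from 2.79 through 4.74 to 10.2 in MCD livers. Every MCD library lay above every control. Ankrd1 rose by 3.81 on the log2 scale (SE 0.28, edgeR FDR 1.52e-11), or 14.0-fold with a 95% confidence interval from 9.42 to 20.9. Ankrd1 passed the low-count filter through the MCD libraries alone, so a gene this low in control livers could be tested only because it was high in MCD livers. The size and its interval rest on few control reads, since 4 of 12 controls held 1 to 3 counts, and there is no value where at least 10 counts were required in every sample. Its window above carries 2 matches to the TEAD core, and whether they bear on its rise was not tested.

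Ctgf (ENSMUSG00000019997, chr10:24595442-24598683) encodes connective tissue growth factor, a secreted protein that binds matrix and is known to promote fibrosis. Control libraries held 40 to 405 counts (median 143) and MCD libraries 634 to 1940 (median 833.5). Its level ran from 2.73 through 7.95 to 23.6 CPM in control livers and from 24.8 through 38.9 to 75.3 CPM in MCD livers. The groups did not overlap, although the highest control (23.6) and the lowest MCD library (24.8) were close. Its rise was 2.09 on the log2 scale (SE 0.27, edgeR FDR 1.68e-07), or 4.25-fold with a 95% confidence interval from 2.92 to 6.20. It was 2.14 without control replicate 12. A gene on the opposite strand, Gm15270, covers 23.2% of the exon bases of Ctgf and was listed with 0 to 14 counts in any library.

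Cyr61 (ENSMUSG00000028195, chr3:145646976-145649981) encodes a secreted CCN protein closely related to Ctgf. Its level ran from 4.47 through 9.08 to 10.3 CPM in control livers and from 7.77 through 10.5 to 13.1 CPM in MCD livers. The ranges overlapped, with 6 of 12 MCD libraries above every control. The log2 fold change was 0.34 (SE 0.13, 95% confidence interval 0.07 to 0.60, edgeR FDR 0.0247), which did not pass. It was 0.31 without control replicate 12 (edgeR FDR 0.0185), and it passed with total counts alone (0.68, edgeR FDR 0.000893).

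The balance between these targets was compared within each library, where scaling plays no part. Per kb of exon, the level of Ctgf over that of Cyr61 was 0.855 ± 0.508 in control and 2.99 ± 1.56 in MCD livers (SD, n = 12 each). Ctgf exceeded Cyr61 in 3 of 12 control and 12 of 12 MCD libraries. Ctgf over Yap1 was 0.423 ± 0.258 in control (highest 0.985) and 2.21 ± 0.835 in MCD livers (lowest 1.38). The ratios of Ctgf over Yap1 thus did not overlap, while those of Ctgf over Cyr61 did (highest control 1.79, lowest MCD 1.42).

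**Figure D3:**
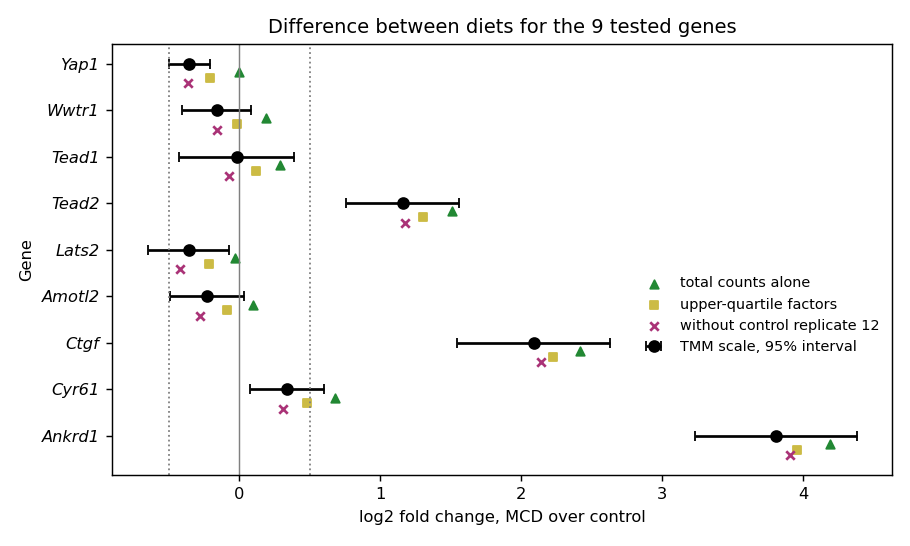
Log2 fold change of MCD over control livers for the 9 tested genes, with 95% confidence intervals on the TMM scale (black) and the values with total counts alone, with upper-quartile factors and without control replicate 12; dotted lines mark the fold limit of 0.5 on each side. Ankrd1, Ctgf and Tead2 lie beyond the limit under each of them, and Cyr61 does so with total counts alone.

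Ordered by level per kb of exon, control livers ran Yap1, Amotl2, Wwtr1, Cyr61, Ctgf, Lats2, Tead1, Tead2, Ankrd1 and Tead4. Lats2 exceeded Tead1, and Tead1 exceeded Tead2, in 12 of 12 control libraries, while the other neighbours changed places in at least 1 library. Amotl2 exceeded Wwtr1 in 6 of 12, Ankrd1 exceeded Tead4 in 6, Ctgf exceeded Lats2 in 4, Cyr61 exceeded Ctgf in 9 and Yap1 exceeded Amotl2 in 9, and the means of these pairs differed by less than the larger SD of the pair. Wwtr1 exceeded Cyr61 in 10 of 12. In MCD livers Ctgf came first, at 14.4 ± 5.44 CPM per kb (SD, n = 12) and above Yap1 in 12 of 12 libraries. Yap1, Amotl2, Wwtr1, Cyr61, Lats2, Ankrd1, Tead1, Tead2 and Tead4 followed. There Amotl2 exceeded Wwtr1 in 5 of 12 libraries, and Wwtr1 exceeded Cyr61 in 8 of 12. Ankrd1 stood at 1.84 ± 0.704 CPM per kb, above Tead1 in 10 of 12 MCD libraries, against 0.129 ± 0.0717 in control livers, below Tead2 in 11 of 12.

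The wider pathway was read from gene lists that share no gene with the 10 members. In the Hippo kinase cascade, 1 of 13 tested genes was higher (7.69%) and 3 were lower (23.1%). Over all tested genes 19.2% were higher and 19.1% lower, so the share of lower genes was near that of the whole table. The median log2 fold change of the list was -0.16, against -0.10 over all tested genes. The higher gene was Map4k4, a kinase that can activate LATS, at 1.07 (SE 0.15, edgeR FDR 6.02e-07), from 12.5 ± 4.39 to 26.3 ± 3.56 CPM (SD, n = 12 each). The kinases Taok3 (-0.80) and Taok1 (-0.65) and the LATS cofactor Mob1b (-0.59, named after its value was seen) were lower. Lats1, the other LATS kinase, gave -0.41 (SE 0.09, edgeR FDR 0.000248), short of the fold limit. With total counts alone, 0 genes of this list were lower and its median was 0.18.

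Among 17 junction, polarity and scaffold genes, 5 were higher (29.4%) and 3 lower (17.6%), beside 19.2% and 19.1% of all tested genes. The list median was 0.02, against -0.10 over all tested genes. With total counts alone the list had 6 higher and 1 lower (median 0.35). Wtip (1.49) and Ajuba (1.32) encode LIM proteins that restrain LATS. Ajuba had 65 to 323 counts in control and 486 to 670 in MCD libraries, and both genes were above every control in 12 of 12 MCD libraries. Of all tested genes, 9.5% were so placed. Dchs1, a large cadherin of the Hippo pathway, was lower by the most, at -1.59 (SE 0.20, edgeR FDR 1.61e-07), from 11.4 ± 4.98 to 3.80 ± 0.728 CPM (SD, n = 12 each). Of the Vgll genes, which encode other partners of TEAD, Vgll1 and Vgll2 were too low to test. Vgll3, with 1 to 11 counts in a control library and 16 to 51 in an MCD library, rose by 2.18 (SE 0.26, edgeR FDR 5.94e-08). It too passed the filter through the MCD libraries alone, and with at least 10 counts in every sample 0 of 2 tested genes of its list were higher. Vgll4, which competes with YAP for TEAD, gave -0.31 (SE 0.10, edgeR FDR 0.0104).

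A list of 17 other genes often used as YAP targets had 16 tested members, of which 8 were higher (50.0%) and 3 lower (18.8%). Over all tested genes 19.2% were higher and 19.1% lower. The list median was 0.54, against -0.10 over all tested genes. It was 0.89 with total counts alone, and 0.24 over the 14 genes with at least 10 counts in every sample (6 higher and 3 lower). Ptpn14 belongs to this list and to the scaffold list, so it is counted in both. The largest rises were those of Myof, a membrane repair protein, at 2.88 (SE 0.18, edgeR FDR 1.31e-12), Fjx1 at 2.61 and Tgfb2, a ligand of the TGF-beta family, at 2.51. Myof rose from 5.12 ± 2.13 to 38.0 ± 7.29 CPM (SD, n = 12 each), with every MCD library above every control. The 3 lower genes, named because they were few and after their values were seen, were Nt5e (-2.49), Igfbp3 (-0.80) and Dock5 (-0.72). The counts were again 8 and 3 without control replicate 12, and 10 and 1 with total counts alone.

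Ctgf and Cyr61 also belong to the genes that respond within minutes to serum or tissue handling. Of 15 tested immediate early genes, 11 were higher (73.3%) and 0 lower in MCD livers, beside 19.2% and 19.1% of all tested genes. With total counts alone 14 were higher, and so were 4539 of all 14109 tested genes. With at least 10 counts in every sample 10 of 13 were higher. Of all 14109 tested genes 6001 had a positive log2 fold change. The list median was 1.53, and 15 of 15 had a positive log2 fold change. The largest were Egr2 (3.85), Atf3 (3.65) and Egr1, which rose from 8.13 ± 3.79 to 67.4 ± 47.8 CPM (SD, n = 12 each; log2 fold change 3.05, SE 0.34, edgeR FDR 2.23e-08). Their part in the rise of Ctgf was not tested. Of 12 tested actin and serum response factor genes, 7 were higher (58.3%, beside 19.2% of all tested genes), led by Flna (1.82), Tagln (1.19) and Actg1 (1.02). Among relatives of the members, Wisp2 (Ccn5) had 0 to 23 counts in control and 154 to 887 in MCD libraries, a rise of 4.78 that depends on the prior count (SE 0.43, edgeR FDR 5.38e-10), and Wisp1 (Ccn4) rose by 0.85. Wisp2 likewise passed the filter through the MCD libraries, and with at least 10 counts in every sample 1 gene of that list was left to test and 0 were higher.

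**Figure D4:**
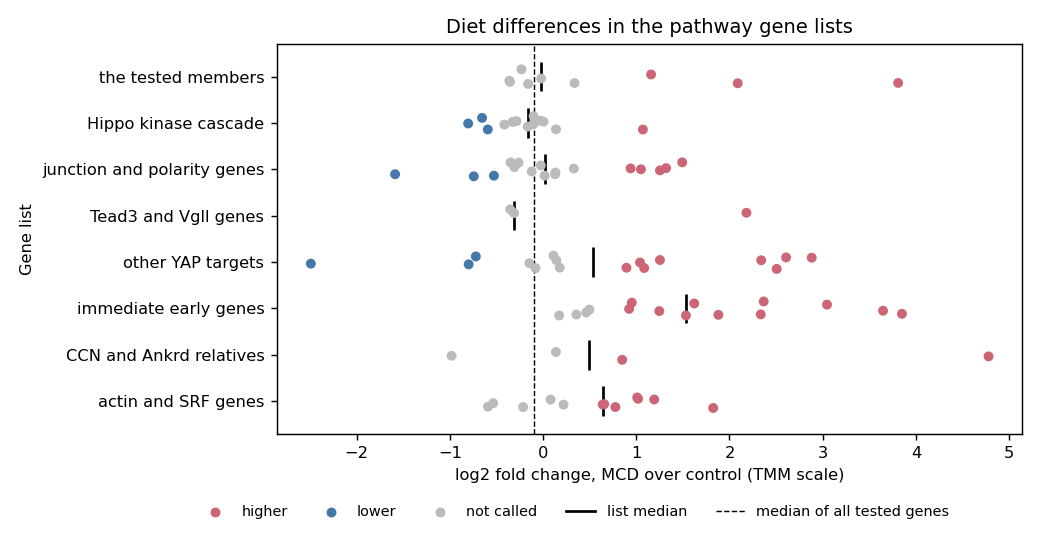
Log2 fold change of MCD over control livers for each tested gene of the members and of the related lists; red points were higher, blue lower and grey not called, black bars are list medians and the dashed line is the median of all tested genes (-0.10). The median of the Hippo kinase cascade was -0.16, that of the other YAP targets 0.54 and that of the immediate early genes 1.53.

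Whether targets and coactivators varied together among mice was asked in control and MCD livers apart, as pooled values would only mirror the diet. Of 20 relations (10 pairs in each diet), 0 had an adjusted p under 0.05 by Pearson's r or by Spearman's rho on the TMM scale. Scaling changes this. With total counts alone, Cyr61 with Amotl2, Cyr61 with Egr1 and Ctgf with Col1a1 passed in control livers by Pearson's r (adjusted permutation p 0.0387, 0.0387 and 0.0413). The values that follow are on the TMM scale. Ctgf and Cyr61 had an r of 0.18 in control livers (permutation p = 0.572; adjusted, 0.762) and of -0.57 in MCD livers (permutation p = 0.0552; adjusted, 0.276), where rho was -0.54 (permutation p = 0.0753; adjusted, 0.502). Without the 2 MCD libraries farthest from the median of Ctgf, r was -0.72 (permutation p = 0.0263; adjusted, 0.263). Ctgf and Col1a1, the main fibrillar collagen chain, had an r of 0.69 in control livers (permutation p = 0.0126; adjusted, 0.126) with a rho of 0.67 (permutation p = 0.0206; adjusted, 0.412), and 0.71 without 2 libraries (permutation p adjusted, 0.263). In MCD livers their r was -0.09 (permutation p = 0.79; adjusted, 0.896). Cyr61 and Egr1 had the largest r of the 20, 0.72 in control livers (permutation p = 0.012; adjusted, 0.126), with a rho of 0.42 (permutation p = 0.174; adjusted, 0.64) and an r of 0.62 without controls 1 and 12 (permutation p adjusted, 0.373). Cyr61 and Amotl2 had an r of 0.68 in control livers (permutation p = 0.0245; adjusted, 0.163) and a rho of 0.35 (permutation p = 0.267; adjusted, 0.64). That relation rests on controls 1 and 12, without which r was 0.10 (permutation p adjusted, 0.985). For Yap1 and Ctgf, r was -0.40 across control livers (permutation p = 0.197; adjusted, 0.575). Across MCD livers it was 0.34 (permutation p = 0.277; adjusted, 0.575). The labels name no batch within which these relations could be recomputed.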

How the data were processed

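Poly(A) RNA of 24 livers was sequenced, and the authors deposited raw counts per Ensembl gene, 1 column per library, not normalized. The submitters' processing notes name bcl2fastq, STAR 2.7.3a and mm10. The study's methods name the exon quantification pipeline, STAR and PISCES, and a stranded TruSeq kit, for reads aligned to the human genome. Whether the mouse libraries were made and counted in the same way is not given in the sources used here. All 24 columns matched a sample title and 0 were unused. Symbols, exon lengths and overlaps came from GENCODE release M21 (GRCm38), which named 51745 of 56205 rows.

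In R 4.3.3, genes were filtered with filterByExpr (14109 kept), scaled with TMM factors and compared by diet with edgeR 4.0.16 (glmQLFit, glmQLFTest), without covariates, over all 24 libraries. The limits (FDR 0.01, log2 0.5) are those of the study for human liver. SEs follow from each log2 fold change and its F statistic. CPM uses TMM-scaled library sizes; log2 CPM for correlations has a prior count of 2. Permutations were two-sided with 100000 resamples (numpy 2.4.6, scipy 1.17.1), adjusted by Benjamini-Hochberg over 20 relations. Alternatives included DESeq2 1.42.0 and limma-voom (limma 3.58.1). The fits were tested on simulated data. Of libraries of 1 diet, 0 pairs were identical.

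The members and all gene lists were chosen with earlier results of these data known. The text names all members, the 3 called genes of each pathway list with the largest differences (marker lists are given as sums and counts), Lats1, Tead3 and Vgll4, and the 5 genes most like Ctgf and Cyr61 by rule. Mob1b, Nt5e, Igfbp3 and Dock5 were named after their values were seen, Col1a1 and Cd37 because a relation or an overlap turns on them, and Vgll1, Vgll2 and Ptpn14 without values. Floors of 3 counts cover counting error only, while confidence intervals of fold changes come from the edgeR SE and include the spread between mice.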

Additional observations from a re-analysis of the deposited data

How the results depend on the processing

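Ankrd1, Ctgf and Tead2 were past the threshold under each alternative that gave them a value, at 3.81 to 4.19, 2.09 to 2.42 and 1.16 to 1.51 on the log2 scale, and at 3.70 to 3.91, 2.01 to 2.29 and 1.10 to 1.30 when each of the 24 libraries was left out in turn. Ankrd1 had no value where at least 10 counts were required in every sample, leaving 2 higher members. With total counts alone, or with an FDR of 0.05 and no fold limit, 4 members were higher, Cyr61 being the fourth; the latter limit also made 2 members lower (Yap1 and Lats2). With total counts alone the median of all tested genes moved up by 0.37, and Wwtr1 (0.19) and Amotl2 (0.10) changed sign. Over all genes the calls were then 4539 higher and 848 lower, or 3261 and 1710 with upper-quartile factors, against 2712 and 2688. Dropping the fold limit at an FDR of 0.05 gave 3742 and 5221, a log2 limit of 1 gave 1862 and 686, and at least 10 counts in every sample 1801 and 1885.

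Tead1 changed sign under most alternatives, being 0.031 with relative log expression factors, 0.12 with upper-quartile factors, 0.29 with total counts alone, 0.003 without a low-count filter, 0.055 with at least 10 counts in every sample, 0.033 with DESeq2, 0.10 with limma-voom and 0.005 once a sex-linked score (log2 CPM of Xist minus the mean of 4 Y-linked genes) was a covariate. Leaving out single libraries gave -0.077 to 0.10. Its sign is not resolved, and the cause of single reversals was not tested.

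The replicate block gave 3 higher and 0 lower members, with Tead1 at 0.11. It changed no call count of the members or pathway lists, but left 2 of 5 Kupffer cell markers lower (against 4) and 8 of 8 cholangiocyte markers higher (against 7). The deviations of libraries with the same number had an r from -0.28 to 0.35, above 0.1 for 8 of 12 numbers, and 2 of 12 controls correlated best with their own number, so the numbers were not taken to pair the mice.

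With total counts alone 4 correlations changed sign, none past the threshold before or after: Ctgf with Amotl2 (r = 0.024) and with Yap1 (0.0059) in control, and Ctgf with Yap1 (-0.021) and Wwtr1 (-0.057) in MCD livers. With that scaling 3 control relations had an adjusted permutation p under 0.05, Cyr61 with Amotl2 (r = 0.82) and Egr1 (0.81), and Ctgf with Col1a1 (0.72). On the TMM scale the relation of Cyr61 with Amotl2 rests on controls 1 and 12 (r = 0.10 without them).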

Other observations

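Outside the pathway lists, the genes whose levels followed Ctgf most closely from mouse to mouse were Dusp8, Ctla2a, Tubb2a, Gpnmb and Cdkn1a, with Pearson's r from 0.708 to 0.751 over the 24 libraries after each diet's mean was removed, among 13103 genes searched. Taken by diet, r was 0.754 in control and 0.816 in MCD livers for Dusp8, 0.793 and 0.656 for Ctla2a, 0.753 and 0.710 for Tubb2a, and 0.663 and 0.824 for Cdkn1a, the p53 target that encodes p21. Gpnmb, a marker of lipid-associated macrophages, had 0.843 in control and 0.156 in MCD livers; this difference was not tested. The genes most like Cyr61 were Morc4, Zfp704, Chmp4c, 9930014A18Rik and Sntb2 (0.825 to 0.836), and the lists for Ctgf and Cyr61 have no gene in common. In control livers r between Cyr61 and these genes was 0.866 to 0.943, or 0.760 to 0.893 without control replicate 12, and in MCD livers it was 0.612 to 0.799. The libraries share a scale and these genes were the highest of many, so the values describe these libraries, and no p is given.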
